A study of Mus musculus with 6 samples.

Results

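The matrix metalloproteinases (MMPs) and their tissue inhibitors (TIMPs) are described here as 10 genes, Mmp2, Mmp3, Mmp9, Mmp10, Mmp13, Mmp14, Mmp19, Timp1, Timp2 and Timp3, taken by gene symbol from the 31401 genes of the deposited table. Each of the 10 symbols matched 1 row. RNA had been sequenced from osteoblasts of wild-type 3-day-old C57BL/6 mouse calvaria, the flat bones of the skull, kept for 6 days in osteogenic induction medium. One group of 3 samples received 10 μM ZM, ZM-306416 by the series title, a kinase inhibitor that acts on the receptors of VEGF and EGF, and the control group of 3 samples received none. The cells had been released by trypsin and collagenase, no sorting step is given, and no vehicle is named for the control medium. The labels do not tie samples to separate animals or dishes, so p-values measure the spread between these samples only, which may be technical.

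MMPs are zinc-dependent endopeptidases that cut collagens and other proteins of the extracellular matrix. Most are secreted as inactive proenzymes and are activated when a propeptide is removed by another protease. TIMPs bind the active site of the mature enzymes and block them. In bone, osteoblasts make collagenase and gelatinase that clear unmineralised matrix, and osteoclasts and macrophages make gelatinase B, the product of Mmp9. The level of a transcript does not show how much of the proenzyme is activated.

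The 6 libraries held 42721326 to 69867931 counts, and all carry the same batch label. FPKM is the authors' unit, fragments per kilobase of gene length, scaled to the library total. Of the 7 osteoblast markers tested, 3 were higher (Alpl, Sp7 and Runx2) and 1 lower (Spp1), against 22.8% and 22.4% of all tested genes. Alpl, alkaline phosphatase, was at 7.82 ± 0.262 FPKM in ZM and 0.630 ± 0.0666 FPKM in control samples (SD, n = 3 each), 11.9-fold higher (adjusted p = 5.0e-15, edgeR), and Sp7 was 1.81-fold higher (adjusted p = 0.00098, edgeR). The part of this in the MMP and TIMP differences was not tested. Col1a1 was abundant in both groups, while Ibsp was at 0.116 and 0.0671 FPKM and Bglap at 0.103 and 0.189 FPKM in ZM and control samples, and Dmp1 had no count in the ZM samples and in control samples 1 and 2. Macrophage transcripts were abundant, with Lyz2 at a mean of 6720 FPKM in ZM and 12233 FPKM in control samples. In such bulk RNA, fewer cells of a type and less RNA per cell cannot be told apart. Of 17533 genes tested by edgeR's quasi-likelihood test, 45.3% were called at an adjusted p of 0.05, 22.8% higher and 22.4% lower with ZM. Higher genes made up 50.4% of these calls, and 62.2% when libraries were scaled by their totals alone.

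With ZM, Mmp9 was 10.2-fold higher, while Mmp10 was 29.5-fold, Mmp3 2.51-fold and Timp1 2.05-fold lower. The other 6 genes differed by less than 1.5-fold: Mmp14, Mmp2 and Mmp13 were slightly higher and Mmp19, Timp2 and Timp3 slightly lower. All 10 genes passed the filter on low counts and all 10 were called, 4 higher and 6 lower, against 45.3% of all tested genes. The 3 TIMPs were all among the lower genes, and the MMPs split into 4 higher and 3 lower. The median log2 fold change of the 10 genes was -0.12, against -0.00095 over all tested genes. Of the 10, 4 were called and changed at least 2-fold, a bar that 7.58% of all tested genes met. When tested against a fold change of 1.5 with glmTreat, the same 4 genes passed (7.52% of all tested genes). The 10 genes and the gene lists below were chosen with earlier results of these data known. Their counts beside the shares of all genes are therefore descriptions and not tests of a group.

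**Figure D1:**
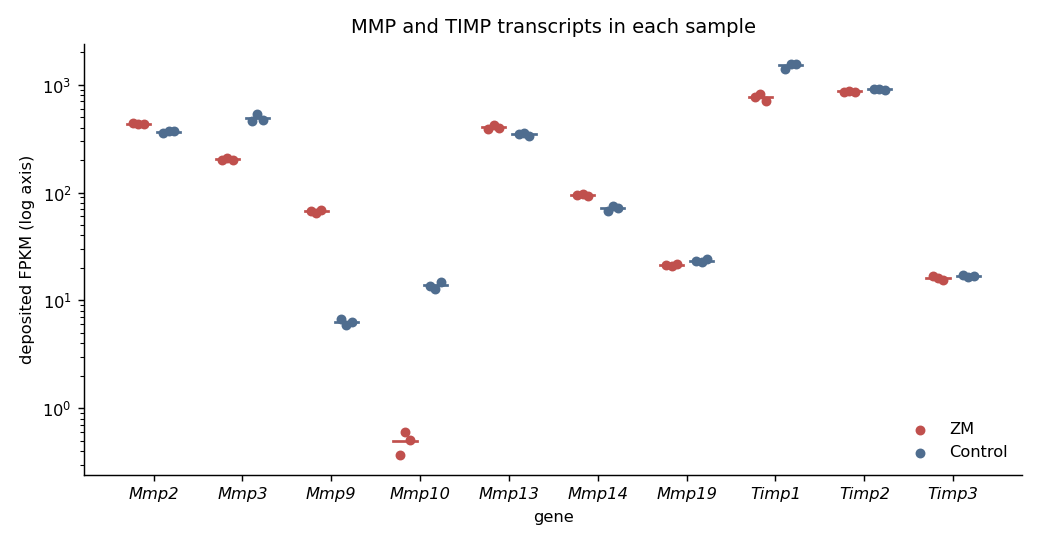
Deposited FPKM (log axis) of each of the 10 genes in the 3 ZM and the 3 control samples, with a line at the group mean. The ZM points of Mmp9 sit between 64.3 and 68.9 FPKM, above control points between 5.92 and 6.79 FPKM, and those of Mmp10 between 0.367 and 0.597 FPKM, below control points between 12.9 and 14.9 FPKM.

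Stromelysins 1 and 2, the products of Mmp3 and Mmp10, fell at the transcript level. Mmp10, stromelysin 2, a broad matrix protease (ENSMUSG00000047562, chromosome 9, 7502352 to 7510240, plus strand, mm10), had 0.367, 0.597 and 0.512 FPKM in ZM samples 1 to 3, against 13.5, 12.9 and 14.9 FPKM in control samples 1 to 3. These levels rest on 36, 46 and 43 counts in the ZM samples and 995, 1547 and 1596 counts in the control samples, so the ZM values are the less precise ones. Every ZM sample lay far below every control sample. On the log2 scale the change was -4.88 ± 0.12 (SE; adjusted p = 3.0e-14, edgeR), the fifth largest fall among the 17533 tested genes. Adding a pseudocount of 1 FPKM shortened this change to -3.31 on the log2 scale, because the ZM level lies below 1 FPKM.

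Mmp3, stromelysin 1, which cuts proteoglycans, fibronectin and the propeptides of other MMPs (chromosome 9, 7445822 to 7455975, plus strand), was far more abundant than Mmp10. It had 199, 211 and 199 FPKM in ZM samples 1 to 3, against 461, 535 and 470 FPKM in control samples 1 to 3. The groups did not overlap, and control sample 2 stood highest. Its log2 fold change was -1.33 ± 0.06 (SE; adjusted p = 4.4e-07, edgeR). By mean level Mmp3 was the first of the 7 MMPs in the control samples and the third in the ZM samples. Over 22.9% of its length the Mmp3 transcript matched the predicted genes Gm15242 and Gm15244 at 90% identity or more, and no part of 100 bases or longer matched another gene at 97% identity.

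Collagenase 3, Mmp13, the enzyme that cleaves fibrillar collagen in mouse bone (chromosome 9, 7272514 to 7283331, plus strand), moved slightly the other way. Its levels were 391, 422 and 399 FPKM in ZM samples 1 to 3 and 349, 356 and 334 FPKM in control samples 1 to 3. Each ZM sample was above each control sample, by a small margin. This was a log2 fold change of 0.16 ± 0.04 (SE; adjusted p = 0.0021, edgeR), a rise of 11.9%. Hypertrophic chondrocytes also make Mmp13, and the 5 chondrocyte markers summed to 39.5 to 41.5 CPM (counts scaled to TMM library sizes) in ZM and 18.9 to 24.6 CPM in control samples, with 2 of 4 tested markers higher (22.8% of all tested genes). Acan, 1 of these markers, had 3, 2 and 2 counts in ZM samples 1 to 3 and 0, 2 and 0 counts in control samples 1 to 3, and was not tested. The part of chondrocytes in the Mmp13 difference was not tested.

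Mmp3, Mmp10 and Mmp13 lie in 1 cluster of 10 MMP genes that spans 427 kb of chromosome 9. Of the 8 cluster genes tested, 2 were higher and 6 lower with ZM (22.8% and 22.4% of all tested genes). In chromosomal order they were Mmp13 (higher), Mmp12 (higher), Mmp1b, Mmp3, Mmp1a, Mmp10, Mmp8 and Mmp27 (all 6 lower). The 2 genes that rose, Mmp13 by 11.9% and Mmp12 by 51.6%, are thus the first 2 of the cluster. Every tested gene from Mmp1b onward fell. The order along the chromosome was not tested, and the Mmp12 call was lost when some single samples were left out. Mmp7, at the far end, had 9 counts in ZM sample 1 and 0 in the other 5 samples and was not tested. Mmp20 matched no symbol among the deposited genes, so its level is not given.

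Of the other 5 tested genes of the cluster, Mmp8, the neutrophil collagenase, was the most abundant in the control samples, at 33.0 ± 1.42 FPKM in ZM and 150 ± 10.6 FPKM in control samples (SD, n = 3 each). Its log2 fold change was -2.24 ± 0.05 (SE; adjusted p = 1.7e-13, edgeR). Mmp1b and Mmp1a, mouse relatives of the human interstitial collagenase gene, were low and fell by 3.24 and 3.75 on the log2 scale. The annotation lists Mmp1a as a polymorphic pseudogene. The longest transcript of Mmp1a matched Mmp1b or Mmp12 over 71.7% of its length at 90% identity or more, and that of Mmp1b matched Mmp1a or Mmp12 over all of its 1449 bases at 90% and Mmp12 over 160 bases at 97%, so the split of reads between them is uncertain. Mmp27 fell by 1.28 on the log2 scale, to 3.30 FPKM in ZM samples against 7.74 FPKM in control samples. Mmp12, the macrophage elastase, was at 26.9 ± 3.87 FPKM in ZM and 17.0 ± 1.19 FPKM in control samples (SD, n = 3 each). Its log2 fold change was 0.60 ± 0.13 (SE; adjusted p = 0.019, edgeR), and the call was lost without any 1 of the control samples (adjusted p = 0.062 without sample 1, adjusted p = 0.060 without sample 2 and adjusted p = 0.051 without sample 3, edgeR) or without ZM sample 1 (adjusted p = 0.063, edgeR). Exons of Mmp12 and Mmp1b overlap on opposite strands over 157 bases, and no strand setting is stated for the counting.

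**Figure D2:**
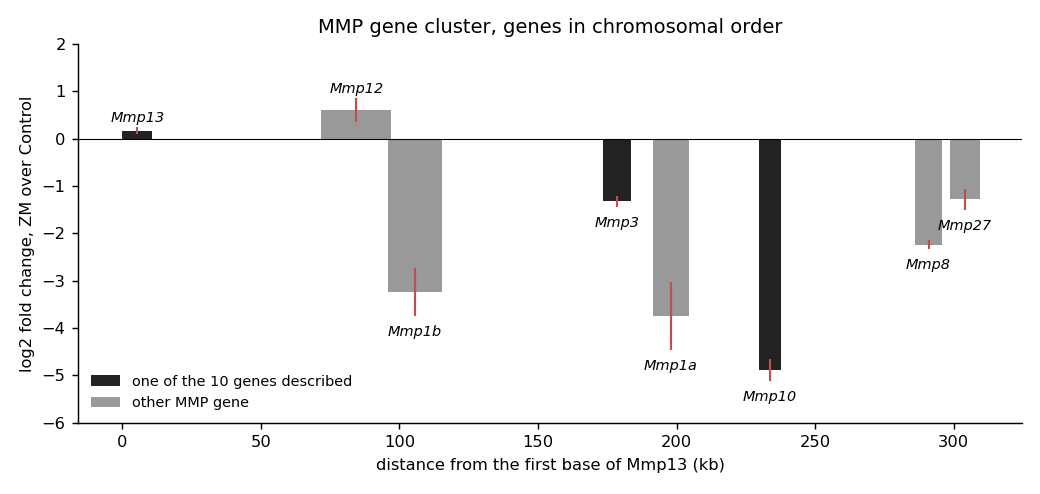
Log2 fold change (ZM over control; bars with an approximate 95% interval) of the 8 tested genes of the chromosome 9 MMP cluster, each bar drawn at the gene's place and as wide as the gene, in kb from the first base of Mmp13. The bars of Mmp13 and Mmp12 point up, and the other 6 point down, lowest for Mmp10 at -4.88.

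The 3 cluster genes described share promoter letters that Mmp14, Timp1, Timp2 and Timp3 lack. They are shown as letters only, and their part in the differences was not tested. RefSeq promoter entries (GRCm38.p6, the mm10 assembly) matched 7 of the 10 genes, all but Mmp2, Mmp9 and Mmp19. The 120 bases before the annotated start are printed 5′ to 3′ for Mmp13 (chr9:7272394-7272513, plus strand), Mmp1b (chr9:7388027-7388146, minus strand), Mmp3 (chr9:7445702-7445821, plus strand), Mmp10 (chr9:7502222-7502341, plus strand) and Mmp8 (chr9:7558309-7558428, plus strand). Capitals mark TGANTCA, the letters bound by AP-1 (dimers of Fos and Jun proteins), and TATAAA, the TATA box, both searched on both strands. They do not overlap each other in any of these windows.
Mmp13: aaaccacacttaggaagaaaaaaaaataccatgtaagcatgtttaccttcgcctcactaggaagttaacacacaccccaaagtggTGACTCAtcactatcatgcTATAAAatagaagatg
Mmp1b: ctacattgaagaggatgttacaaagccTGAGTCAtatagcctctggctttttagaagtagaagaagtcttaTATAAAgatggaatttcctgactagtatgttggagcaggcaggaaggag
Mmp3: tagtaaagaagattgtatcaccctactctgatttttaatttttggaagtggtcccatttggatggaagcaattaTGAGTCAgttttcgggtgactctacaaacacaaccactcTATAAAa
Mmp10: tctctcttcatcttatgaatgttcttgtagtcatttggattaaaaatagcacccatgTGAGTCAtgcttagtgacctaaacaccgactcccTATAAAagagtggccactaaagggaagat
Mmp8: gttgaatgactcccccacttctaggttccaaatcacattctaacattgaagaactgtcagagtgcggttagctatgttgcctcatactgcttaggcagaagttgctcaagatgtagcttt

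Mmp13, Mmp1b, Mmp3 and Mmp10 each hold 1 AP-1 motif followed by 1 TATA box, and the window of Mmp8 holds neither. Among 32851 RefSeq start sites, 3.41% hold TGANTCA and 6.34% hold TATAAA in the 120 bases before the start. Within 250 bases, the share with TGANTCA is 6.75%. In that longer window 8 of the 10 cluster genes had TGANTCA at an annotated start, Mmp12 only at the second of its 2 starts. Of the 12 MMP and TIMP genes elsewhere in the genome with a promoter entry, 0 had it. Mmp2, Mmp9, Mmp16, Mmp17 and Mmp19 had no entry and were not searched. The 8 cluster genes include 2 that were higher with ZM (Mmp13 and Mmp12), 4 that were lower (Mmp1b, Mmp3, Mmp1a and Mmp10), Mmp7, which was not tested, and Mmp20. Mmp8 and Mmp27, without the motif in this window, were lower. A match is a run of letters and not a measured binding site.

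The gelatinases, which cut denatured collagen and basement membrane, rose by very different amounts. Mmp9, gelatinase B (ENSMUSG00000017737, chromosome 2, 164940780 to 164955850, plus strand), had 67.2, 64.3 and 68.9 FPKM in ZM samples 1 to 3, against 6.79, 5.92 and 6.24 FPKM in control samples 1 to 3. The ZM samples lay close together and all far above the control samples. The log2 fold change was 3.35 ± 0.05 (SE; adjusted p = 4.5e-17, edgeR), the rise of rank 25 among 17533 tested genes. Among all 31401 genes by FPKM, Mmp9 stood at rank 555 to 625 in the ZM libraries and at rank 5966 to 6421 in the control libraries.

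Mmp9 is also a product of osteoclasts, macrophages and neutrophils, and markers of these cells moved with the groups. All 9 osteoclast markers of the list were higher with ZM (22.8% of all tested genes), with summed levels of 874 to 894 CPM in ZM and 529 to 565 CPM in control samples, and a median log2 fold change of 2.47. Most of the summed osteoclast level was Ctsk, at a mean of 582 CPM in ZM and 434 CPM in control samples, 1.34-fold higher. The phosphatase gene Acp5 was at 57.6 FPKM in ZM and 5.60 FPKM in control samples. All 10 macrophage markers were lower (22.4% of all tested genes), with summed levels of 10546 to 11673 CPM in ZM and 19895 to 20831 CPM in control samples. No marker of either list was at 0 in a group. The 6 neutrophil markers summed to 4.92 to 6.35 CPM in ZM and 9.40 to 16.3 CPM in control samples, with S100a9 and Mpo at 0 counts in every ZM sample. The part of these cells in the Mmp9 difference was not tested.

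Mmp2, gelatinase A, made by osteoblasts and fibroblasts (chromosome 8, 92827291 to 92853420, plus strand), was abundant in both groups. It had 437, 433 and 433 FPKM in ZM samples 1 to 3 and 357, 372 and 371 FPKM in control samples 1 to 3. The groups did not overlap. On the log2 scale the change was 0.19 ± 0.03 (SE; adjusted p = 0.000134, edgeR), a rise of 13.7%. With Mmp3 lower, Mmp2 was the most abundant of the 7 MMPs in the ZM samples.

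Mmp14, a membrane-anchored MMP known to cut collagen at the cell surface and to activate the Mmp2 proenzyme (chromosome 14, 54431612 to 54445364, plus strand), rose with Mmp2. Its levels were 94.1, 96.6 and 92.1 FPKM in ZM samples 1 to 3 and 67.6, 74.7 and 72.1 FPKM in control samples 1 to 3. Each ZM sample was above each control sample. Its log2 fold change was 0.34 ± 0.04 (SE; adjusted p = 2.5e-06, edgeR), a rise of 26.5%.

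Mmp19, a secreted MMP that cuts basement membrane proteins (chromosome 10, 128790910 to 128800824, plus strand), had 21.36, 20.95 and 21.56 FPKM in ZM samples 1 to 3 and 23.3, 22.8 and 24.0 FPKM in control samples 1 to 3. The groups lay close to each other without overlap. This was a log2 fold change of -0.20 ± 0.04 (SE; adjusted p = 0.000375, edgeR). Exons of the opposite-strand genes Tmem198b and Gm47093 overlap 28.3% of its exon length, so its level is uncertain.

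Of the inhibitors, Timp1 fell clearly. Timp1, a secreted TIMP that also binds the Mmp9 proenzyme (chromosome X, 20870166 to 20874735, plus strand), had 774, 820 and 705 FPKM in ZM samples 1 to 3 and 1412, 1549 and 1571 FPKM in control samples 1 to 3. The highest ZM sample lay below the lowest control sample. The log2 fold change was -1.04 ± 0.07 (SE; adjusted p = 5.7e-06, edgeR). Among all genes by FPKM, Timp1 stood at rank 25 to 28 in the ZM libraries and at rank 11 to 13 in the control libraries.

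Timp2, which links the Mmp2 proenzyme to Mmp14 at the cell surface (chromosome 11, 118301069 to 118355740, minus strand), had 863, 880 and 858 FPKM in ZM samples 1 to 3 and 911, 908 and 891 FPKM in control samples 1 to 3. It was the most abundant of the 10 genes in the ZM samples and second to Timp1 in the control samples. On the log2 scale the change was -0.12 ± 0.03 (SE; adjusted p = 0.0046, edgeR). Timp3, which is held in the matrix and also inhibits ADAM family proteases (chromosome 10, 86300372 to 86349506, plus strand), had 16.8, 16.2 and 15.6 FPKM in ZM samples 1 to 3 and 17.3, 16.6 and 16.9 FPKM in control samples 1 to 3. ZM sample 1 lay above control sample 2 on this scale, while the groups did not overlap in CPM on scaled library sizes. Its log2 fold change was -0.13 ± 0.04 (SE; adjusted p = 0.010, edgeR). The Timp2 and Timp3 calls rest on the scaling: with library size alone the changes were -0.059 (adjusted p = 0.12, edgeR) and -0.067 (adjusted p = 0.16, edgeR), and without ZM sample 3 the Timp3 change was -0.10 (adjusted p = 0.066, edgeR). Exons of Syn3, on the opposite strand, overlap 21.3% of the Timp3 exon length.

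The make-up of the transcripts of the 7 MMPs differed more between the groups than their sum did. Summed over the 7 MMPs, the level was 1225 ± 21.4 FPKM in ZM and 1317 ± 54.4 FPKM in control samples (SD, n = 3 each). Mmp3 held 16.6% ± 0.28 of this sum in ZM and 37.1% ± 1.51 in control samples, and Mmp9 held 5.46% ± 0.27 in ZM and 0.481% ± 0.051 in control samples (SD, n = 3 each). The shares of Mmp2 (35.5% in ZM, 27.9% in control) and Mmp13 (33.0% in ZM, 26.3% in control) were larger with ZM. Mmp2, Mmp3 and Mmp13 together held 85.1% of the sum in ZM and 91.3% in control samples. Over all 22 MMP genes with a row, the sum was 1338 ± 19.5 FPKM in ZM and 1530 ± 44.6 FPKM in control samples (SD, n = 3 each). The 7 MMPs held 91.5% of that wider sum in ZM and 86.0% in control samples, and Mmp8 held 2.47% and 9.80%. These sums and shares are descriptions without a test.

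The 3 TIMPs summed to 1650 ± 68.7 FPKM in ZM and 2431 ± 79.1 FPKM in control samples (SD, n = 3 each). Timp1 held 46.4% of the TIMP sum in ZM and 62.1% in control samples, and Timp2 held 52.6% in ZM and 37.2% in control samples. The MMP sum used here leaves out Mmp8 and the other MMP genes. It was 74.3% ± 2.27 of the TIMP sum in ZM and 54.2% ± 1.83 in control samples (SD, n = 3 each). These are ratios of transcripts and not of proteins.

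**Figure D3:**
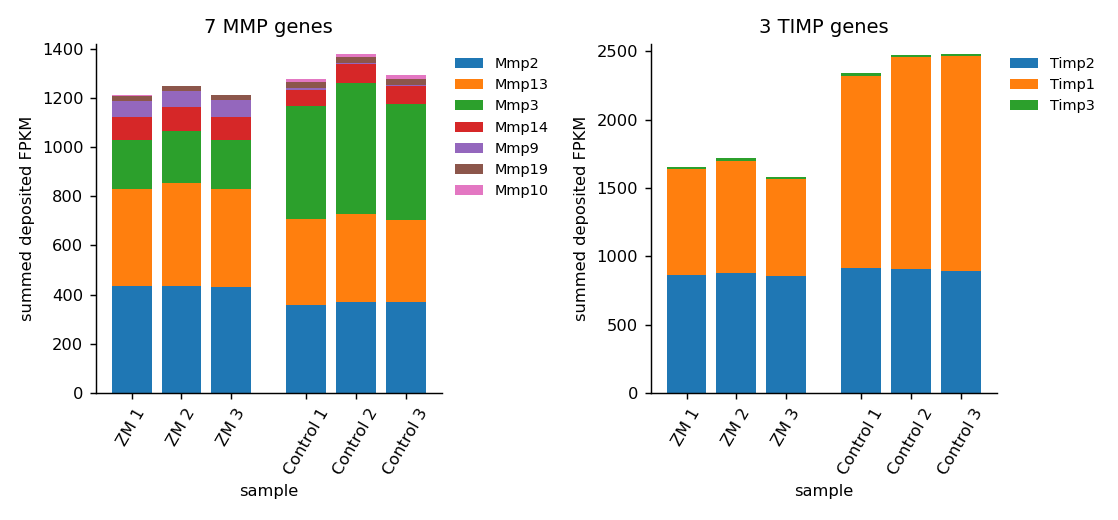
Deposited FPKM of the 7 MMP genes (left) and the 3 TIMP genes (right), stacked for each ZM and control sample. The MMP stacks reach 1210 to 1249 FPKM in ZM and 1278 to 1379 FPKM in control samples with a smaller Mmp3 part in ZM, and the TIMP stacks reach 1579 to 1716 FPKM in ZM and 2340 to 2479 FPKM in control samples with a smaller Timp1 part in ZM.

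Enzyme and inhibitor were compared within each library for 3 pairs known to bind each other, a measure that does not depend on library scaling. Mmp9 was at 8.68%, 7.85% and 9.77% of the Timp1 FPKM in ZM samples 1 to 3 and at 0.481%, 0.382% and 0.397% in control samples 1 to 3. Each ZM sample was above each control sample, and the ratio of the means was 20.9-fold. Mmp2 was at 50.1% ± 0.75 of Timp2 in ZM and 40.6% ± 1.27 in control samples (SD, n = 3 each), 1.23-fold higher in ZM. Mmp14 was at 10.9% ± 0.12 of Timp2 in ZM and 7.91% ± 0.43 in control samples (SD, n = 3 each), 1.37-fold higher in ZM. For each of the 3 ratios the exact two-sided permutation test gave p = 0.1, and p = 0.1 after adjustment over the 3 ratios. That is the smallest value that 3 samples against 3 allow, with all 3 ZM samples above all control samples. The outcome was fixed in advance by the single genes. In FPKM, Mmp9, Mmp2 and Mmp14 were higher in every ZM sample than in any control sample, and Timp1 and Timp2 were lower. The ratio tests therefore add nothing to the separation of the single genes, and the sizes of the ratios are a description.

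The rest of the family moved in both directions. Of the 15 other MMP genes in the table and Timp4, 13 were tested, of which 6 were higher and 5 lower (45.3% of all tested genes called). Outside the chromosome 9 cluster, Mmp28, known as epilysin, was at 1.06 ± 0.117 FPKM in ZM and 0.455 ± 0.0703 FPKM in control samples (SD, n = 3 each), and its log2 fold change was 1.17 ± 0.16 (SE; adjusted p = 9.8e-06, edgeR). Mmp11, stromelysin 3, was at 6.04 ± 0.152 FPKM in ZM and 2.92 ± 0.435 FPKM in control samples (SD, n = 3 each), and its log2 fold change was 1.00 ± 0.09 (SE; adjusted p = 1.2e-07, edgeR). Mmp11 and Mmp10 both carry the name stromelysin and went in opposite directions. Timp4, the remaining inhibitor, rose by 1.80 on the log2 scale but stayed at 0.145 FPKM in ZM and 0.0410 FPKM in control samples. Mmp17 and Mmp25, both low, did not pass the threshold (log2 fold changes of 0.34 ± 0.17 and 0.66 ± 0.42, SE).

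**Figure D4:**
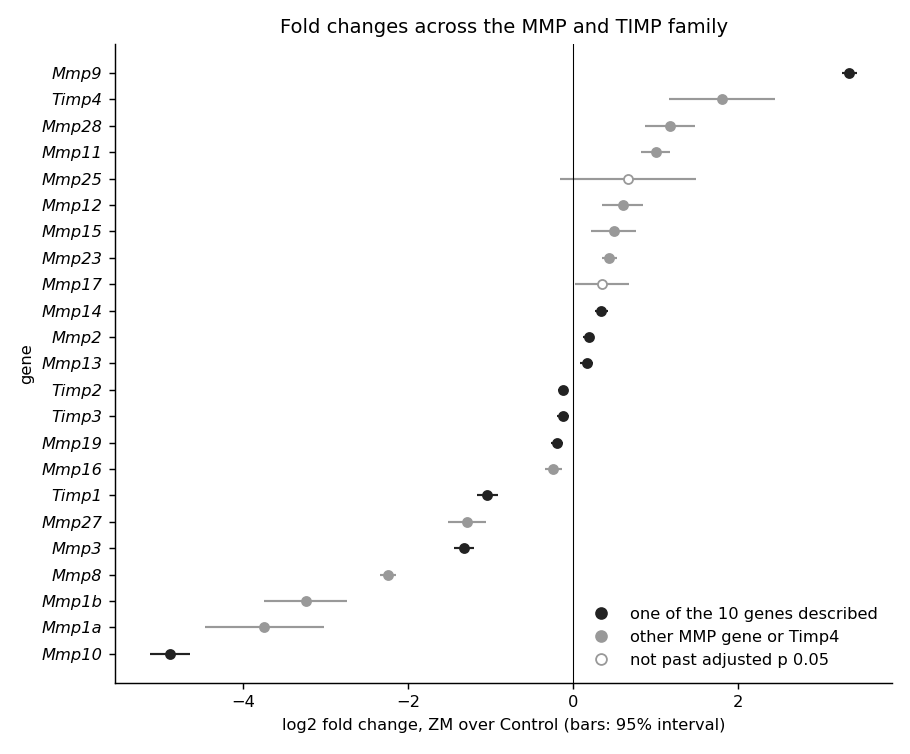
Log2 fold change (ZM over control) with an approximate 95% interval for the 23 tested MMP and TIMP genes, black for the 10 genes described, grey for the others and open where the adjusted p is not under 0.05. Mmp9 at 3.35 and Mmp10 at -4.88 mark the ends, and of the other 8 black points Mmp3 is lowest at -1.33 and Mmp14 highest at 0.34.

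Genes that activate, block or take up MMPs were mixed. Of 18 tested, 5 were higher and 8 lower, against 22.8% and 22.4% of all tested genes, with a median log2 fold change of -0.19. The plasminogen activators, whose product plasmin cleaves MMP proenzymes, were lower: Plau, urokinase, was at 25.7 ± 1.07 FPKM in ZM and 87.3 ± 6.02 FPKM in control samples (SD, n = 3 each), and its log2 fold change was -1.82 ± 0.05 (SE; adjusted p = 1.9e-11, edgeR). Its receptor gene Plaur fell by 1.47 and the tissue-type activator Plat by 1.02 on the log2 scale. Of the proprotein convertases, Pcsk6 (1.47 ± 0.07, SE) and Pcsk5 (0.79 ± 0.04, SE) rose. Furin fell (-0.47 ± 0.04, SE), to 18.6 FPKM in ZM samples against 24.7 FPKM in control samples. Pcsk7 did not pass the threshold (-0.07 ± 0.05, SE). Reck, a membrane-anchored inhibitor of MMPs, was at 19.4 ± 0.118 FPKM in ZM and 9.55 ± 0.254 FPKM in control samples (SD, n = 3 each), and its log2 fold change was 0.97 ± 0.04 (SE; adjusted p = 4.9e-12, edgeR). Reck thus moved in the direction opposite to Timp1. Plasminogen itself, Plg, matched no symbol among the deposited genes, so its level is not given.

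Genes for transcription factors and cytokines known to drive MMP genes were mostly lower. Of 21 tested, 3 were higher and 15 lower, against 22.8% and 22.4% of all tested genes. Their median log2 fold change was -0.67, against -0.00095 over all tested genes. Against a 1.5-fold change with glmTreat, 0 were called higher and 7 lower (7.52% of all tested genes called). The list was chosen with earlier results of these data known, so these counts are a description. Il1a, an interleukin 1 that induces stromelysins and collagenases, was at 0.673 ± 0.178 FPKM in ZM and 14.9 ± 3.05 FPKM in control samples (SD, n = 3 each), and fell by 4.52 on the log2 scale. Il1b fell by 4.06 ± 0.55 (SE) and the ETS factor gene Etv4 by 1.42. The Il1b change rests on 7, 10 and 5 counts in ZM samples 1 to 3. Its counts in control samples 1 to 3 were 63, 268 and 106, a wide spread. The genes that rose were Runx2 (0.29 ± 0.05, SE), the osteoblast factor that acts on the Mmp13 promoter, Jund (0.26 ± 0.07, SE) and Ets1 (0.15 ± 0.04, SE). Of the 7 genes of Fos and Jun proteins in the list, 4 were lower (Fos, Fosb, Fosl1 and Junb), 1 was higher (Jund) and 2 were not called (Fosl2 and Jun), a group chosen after its values were seen. Fosl1 had the largest of these falls (-1.13 ± 0.11, SE), and Jun was at 26.8 FPKM in ZM and 26.0 FPKM in control samples. Several of these cytokine genes are also made by macrophages, whose markers were lower in the same samples, and the part of this in the differences was not tested.

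Among matrix proteins that MMPs cut, 6 of 18 tested genes were higher and 6 lower, against 22.8% and 22.4% of all tested genes, with a median log2 fold change of -0.07. Spp1, osteopontin, was at 3005 ± 161 FPKM in ZM and 9011 ± 211 FPKM in control samples (SD, n = 3 each), and its log2 fold change was -1.64 ± 0.04 (SE; adjusted p = 9.4e-15, edgeR). The glycoproteins tenascin C, Tnc (-0.68 ± 0.04, SE), and fibronectin, Fn1 (-0.51 ± 0.03, SE), fell as well. Sparc, osteonectin (0.35 ± 0.03, SE), the laminin chain Lamb1 (0.33 ± 0.03, SE) and decorin, Dcn (0.26 ± 0.03, SE), rose. The main substrate chains of Mmp13 in bone, Col1a1 and Col1a2, did not pass the threshold, with log2 fold changes of -0.02 ± 0.04 and -0.08 ± 0.03 (SE).

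**Figure D5:**
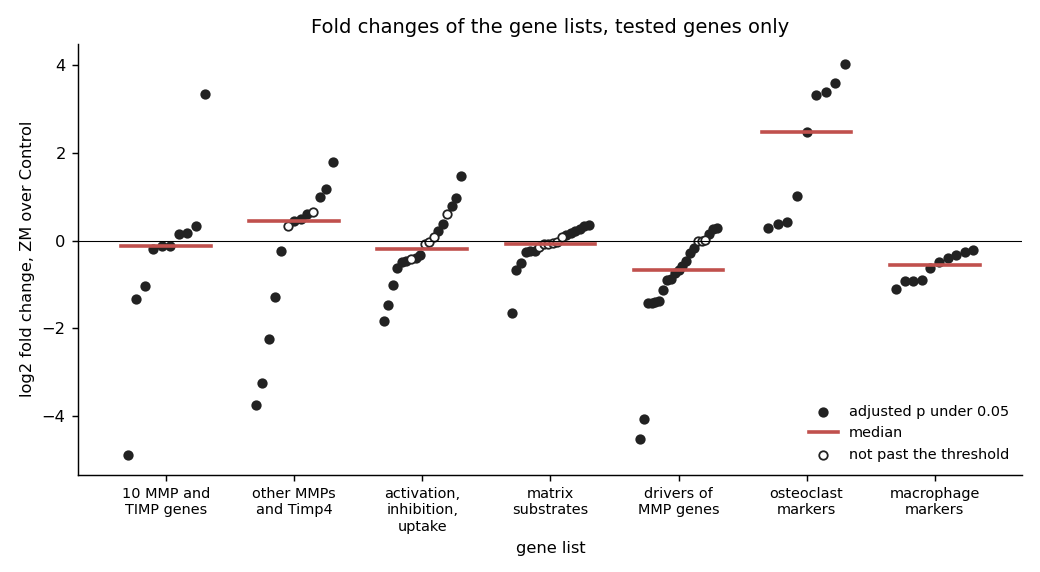
Log2 fold changes (ZM over control) of the tested genes of each list, 1 point per gene, filled where the adjusted p is under 0.05 and open otherwise, with a red line at the list's median. The drivers of MMP genes (median -0.67) and the macrophage markers (median -0.55) lie mostly below 0, and all 9 osteoclast markers (median 2.47) lie above 0.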

How the data were processed

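Counts and FPKM values of 6 samples were used. Groups and replicate numbers come from the sample titles. HISAT2 2.2.1, featureCounts 2.0.3, Subread, DESeq2 and the build mm10 are named in the submitters' processing notes, and the annotation, strand setting and treatment of reads mapping to several places are not stated in the sources used here. The authors deposited raw counts per gene, whole numbers without normalization. Their deposited FPKM values are these counts over the library total and over 1 length per gene, which matched the joined exons of GENCODE M21 for 98.2% of genes.

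Genes passing edgeR's expression filter (17533) were fitted with edgeR 4.0.16 (TMM scaling, robust quasi-likelihood test, groups only), with Benjamini-Hochberg adjustment over all tested genes and a threshold of 0.05. TMM scaling also underlies the CPM values, while levels in FPKM are as deposited, so a fold change can differ slightly from the ratio of the FPKM means. SE was taken as the absolute log2 fold change over the root of the F statistic, and approximate 95% intervals are drawn from it. Tests of ratios were exact two-sided permutation tests. The tests were checked on simulated counts for ZM against control, over 17265 genes. Of 50 genes per fold size edgeR recovered 25 (1.2-fold), 42 (1.5-fold), 41 (2-fold) and 50 (4-fold), with 4.24% false calls. Only these genes were changed, as many up as down, while 45.3% of tested genes were called in the data. The simulation therefore does not check calls that rest on scaling, such as those of Timp2 and Timp3. Replicate libraries differed by more than sampling noise (chi-square per degree of freedom 5.30 to 8.98). The 249 rows without a symbol stayed in library sizes and tests. A count of 0 allows up to 3 counts, 0.0429 to 0.0702 CPM, for counting error only.

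The members and lists were chosen with earlier results of these data known. Named from each list are up to 3 risen and 3 fallen called genes with the largest changes, groups that do not overlap and a group mean of at least 1 FPKM, and family genes next to a member. Timp4, Mmp17, Mmp25, Furin, Pcsk7 and the Fos and Jun genes were named after their values were seen. Positions and exon overlaps are from GENCODE M21 (GRCm38), promoters from RefSeq (GRCm38.p6), and similar transcripts from BLAST+ 2.17.0 (at least 100 bases). Alternatives were other scalings, filters and tools (DESeq2 1.42.0, limma 3.58.1 on log2 FPKM with a pseudocount of 1 or 0.1), a replicate block, a test against 1.5-fold and leaving out each sample.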

Additional observations from a re-analysis of the deposited data

How the results depend on the processing

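Over 16 alternatives for each of the 10 MMP and TIMP genes, 145 of 160 values kept direction and call, 15 lost the call and 0 changed direction. Tested against a 1.5-fold change, 1 MMP or TIMP gene was called higher and 3 lower, and Mmp2 (0.19), Mmp13 (0.16), Mmp14 (0.34), Mmp19 (-0.20), Timp2 (-0.12) and Timp3 (-0.13) had no call. Under that test, where a larger change is required by construction, 1318 of all genes were called (619 higher, 699 lower). Among the other MMP genes and Timp4, 3 were called higher, and the number called lower stayed within 1.5-fold of the 5 in the main test. Calls were 3 higher and 3 lower among activation and uptake genes, 0 higher and 1 lower among substrates and 0 higher and 7 lower among driver genes. Timp2 and Timp3 also lost their calls with library size alone (-0.059 and -0.067) and with limma on log2(FPKM + 1) (-0.059 and -0.064), on log2(FPKM + 0.1) (-0.059 and -0.068) and on log2(FPKM + 1) without a filter (-0.059 and -0.064), all without TMM scaling. On FPKM 2348, 2345 and 2387 genes were called lower under these 3 settings, and with the filter at 1 FPKM, which leaves fewer genes, 3 other MMP genes were called higher and 3 lower with either pseudocount. Of the calls, 50.4% were higher with TMM, 62.2% with library size alone and 62.8% on log2(FPKM + 1). Leaving out each sample gave Timp3 changes of -0.15 to -0.10, with its call lost without ZM sample 3, and kept the other 9 calls. The replicate block gave 7752 calls, with 4 of the 10 genes higher and 6 lower. Same-numbered ZM and control samples did not deviate together (correlations -0.14, 0.13 and -0.0058), and not every sample correlated best with its own number. The 3 ratios kept their direction in 21 of 21 alternatives, an outcome fixed in advance. Scaling cancels within a library, and groups that do not overlap keep their direction when 1 sample is left out. Of 1090 values of the 70 other list genes, 1018 kept their call and 54 lost it, 33 of them in the test against 1.5-fold, and 18 gained one. Precision at low level is limited by depth: Mmp10 rests on 36 to 46 counts in ZM samples.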
